A study of Mus musculus with 12 samples.

Results

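The heat shock genes described here are 10 genes of the cytosolic and mitochondrial protein folding machinery. They were matched by symbol to the Ensembl identifiers of the table, by a rule that uses no measured value. They comprise the transcription factor gene Hsf1, the HSP70 genes Hspa1a, Hspa1b and Hspa8, the HSP90 genes Hsp90aa1 and Hsp90ab1, the HSP110 gene Hsph1, the J-domain gene Dnajb1, and the mitochondrial chaperonin genes Hspd1 and Hspe1. All 10 were among the 16346 genes of the deposited mouse liver table. Of these, 9 were among the 12366 genes that entered the tests, since Hsf1 did not reach the required mean of 10 normalized counts.

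Liver RNA of C57BL6J mice aged 12 weeks was sequenced in 12 libraries, with 2 in each of 6 groups, each taken here as 1 mouse. Control mice carried Med13fl/fl, a floxed allele of the Mediator kinase module gene Med13, without Cre. MED13-LKO mice were obtained by crossing the floxed allele to Alb-Cre, in which the albumin promoter drives recombination in hepatocytes, so the other liver cells keep the gene. Mice of each genotype were fasted for 16 h overnight, or were refed normal chow for 4 h with drinking water that held 30% sucrose or 30% fructose. All groups had been trained to eat in the daytime, and the fed mice were killed later in the day than the fasted mice, so feeding and time of day cannot be told apart. No group on chow with plain water was analysed here, so chow and sugar cannot be told apart either. In whole liver, fewer cells of a type and less RNA per cell cannot be told apart.

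Heat shock proteins bind unfolded or partly folded proteins and help them to reach or regain their shape. HSP70 proteins work with J-domain proteins, which bring substrates and stimulate ATP hydrolysis, and with HSP110 proteins, which exchange the nucleotide. HSP90 proteins act later in the path, on kinases and steroid receptors among others, while HSP60 and HSP10 form the folding chamber of the mitochondrial matrix. The factor encoded by Hsf1 is held inactive by chaperones, and upon heat or an excess of unfolded protein it binds heat shock elements, inverted repeats of nGAAn, in front of the inducible genes. In the liver, chaperone transcripts are also known to follow meals, body temperature and time of day.

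On GRCm38 (GENCODE M21), Hspa1b (chr17:34956436-34959238) and Hspa1a (chr17:34969190-34972156) are neighbouring minus-strand genes. Hspd1 (chr1:55077835-55088243, minus strand) and Hspe1 (chr1:55088132-55091307, plus strand) stand head to head and overlap by 112 bases, so that reads from this stretch cannot be told apart where strand is not used. The remaining genes are Hsf1 (chr15:76477422-76501913, plus strand), Hspa8 (chr9:40800984-40810087, plus strand), Hsp90aa1 (chr12:110690605-110702728, minus strand), Hsp90ab1 (chr17:45567775-45573271, minus strand), Hsph1 (chr5:149614287-149636376, minus strand) and Dnajb1 (chr8:83608193-83612653, plus strand). All 10 are protein-coding.

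Promoter windows of RefSeq genes on GRCm38.p6, each 250 bases upstream to 50 bases downstream of a transcript start, matched 6 of the 10 genes with 9 windows. The shortest form of the heat shock element was searched as GAANNTTC and TTCNNGAA, each of which reads the same on both strands. At least 1 of these was found in 6 of the 9 windows, from 5 of the 6 genes, and in 15.1% of all 32817 windows of the same length. Windows of the same gene overlap in part. The longer form, TTCNNGAA followed directly by NNTTC, searched on both strands and overlapping both short forms, was found in 4 of the 9 windows, from Hsph1, Hspd1 and Hspe1, and in 0.603% of all windows. The E-box CACGTG was found in 3 of the 9, from Hsph1 and Hspd1, and in 7.15% of all windows. No short element was found in the windows of Dnajb1, and a match is a description of the letters only. The stretches below show the element of the inducible HSP70 genes and the elements of Hspe1 and Hsph1, written 5′ to 3′ on the strand of the gene, with heat shock element letters in capitals.
Hspa1b, 250 bases upstream of the start, chr17:34959239-34959488, minus strand: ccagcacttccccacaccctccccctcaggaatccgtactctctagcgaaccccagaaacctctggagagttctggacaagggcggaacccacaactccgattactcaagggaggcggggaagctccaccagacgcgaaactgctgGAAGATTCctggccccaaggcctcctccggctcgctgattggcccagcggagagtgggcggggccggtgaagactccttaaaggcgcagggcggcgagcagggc
Hspe1, 30 bases around an element that begins 89 bases upstream of the start, chr1:55088053-55088082, plus strand: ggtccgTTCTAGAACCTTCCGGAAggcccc
Hsph1, 30 bases at the first element, chr5:149636351-149636380, minus strand: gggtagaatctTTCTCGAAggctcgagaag
Hsph1, 30 bases at the second element, chr5:149636279-149636308, minus strand: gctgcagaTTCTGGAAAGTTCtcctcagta
The windows of Hspa1a and Hspa1b differed at 4 of 300 bases, none of them in the element shown. The run in front of Hspe1 lies on the other strand within a window of Hspd1, so both mitochondrial genes share it. The second element of Hsph1 lies downstream of the RefSeq transcript starts used for the windows. The first lies upstream of these starts but inside the GENCODE span of Hsph1 given above.

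The deposited values are normalized counts, and their sums were 21060000 to 24150000 in the control libraries and 17310000 to 18740000 in the libraries labelled MED13-LKO. Med13 itself was not lower in the latter, with 646 to 1055 against 578 to 796 normalized counts and an averaged log2 difference of 0.22 (SE 0.115, limma adjusted p = 0.201). Which exons are floxed is not given in the sources used here, so a value over the whole gene does not check the labels. Many of the genes have near-identical copies. The percent of 31-base subsequences found in another annotated gene was 70.1% for Hspa1a, 68.1% for Hspa1b, 53.1% for Hspd1, 51.5% for Hsp90aa1, 44.8% for Hspa8 and 30.5% for Hspe1, and reads there could be split among copies. The values of Hspa1a and Hspa1b are therefore uncertain individually. Rows of other genes that share at least 20% of these subsequences were added up with Hspa1a, Hspa1b, Hspa8, Hsp90aa1 and Hspd1, which changed no call. The other genes, Hspe1 among them, had no such row. Apart from Hspa1a and Hspa1b, the added rows held at most 7.88 normalized counts in any library. Hspa1a held at most 67.6, against at least 794 for Hspa1b. Such sums could hardly move the larger row, so they do not show whether reads were split among copies.

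**Figure D1:**
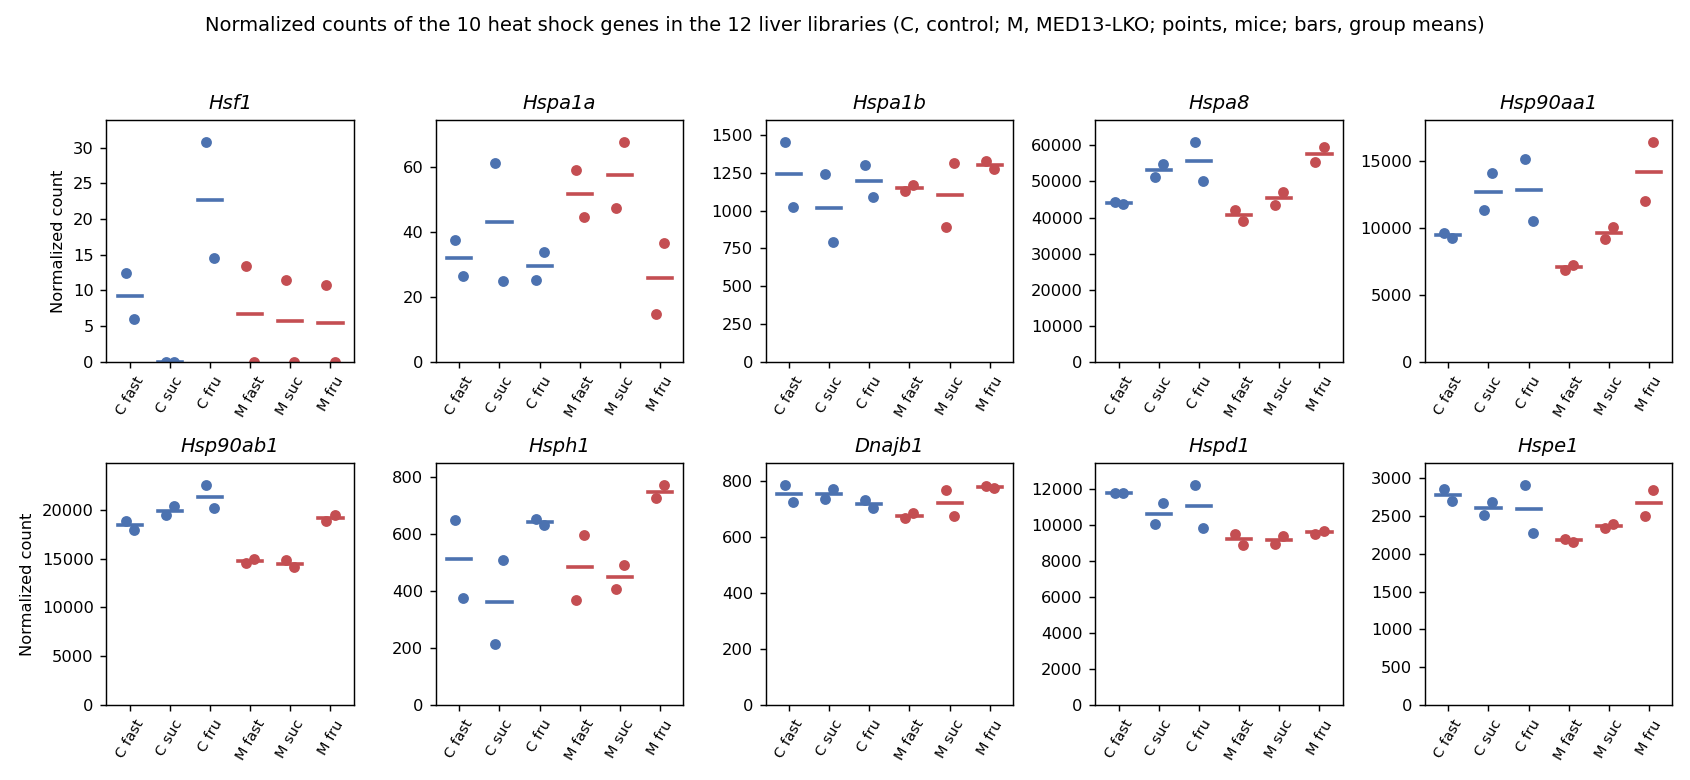
Normalized counts (y axis, from 0, a separate scale per gene) of the 10 heat shock genes in the 6 genotype by diet groups (x axis, blue control, red MED13-LKO), with 1 point per mouse and a bar at the group mean. Hspa8 and Hsp90aa1 were higher in the fed than in the fasted mice of the same genotype, Hsp90ab1 and Hspd1 were lower in MED13-LKO than in control mice on each diet on the authors' scaling, and Hsf1 was listed at 0 in 5 of the 12 libraries.

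The first question was how the genes differed between fasted and sugar-fed livers. Hspa8 and the HSP90 genes Hsp90aa1 and Hsp90ab1 were higher after feeding, while Hspa1a, Hspa1b, Hsph1, Dnajb1 and the mitochondrial pair were not called. Averaged over both sugars and both genotypes, 3 of the 9 tested genes were called higher and 0 lower at an adjusted p under 0.05, where 10.7% of all tested genes were called higher and 21.8% in either direction. The median log2 difference was 0.05 over the 9 genes and -0.01 over all tested genes. Values at equal library totals are given with the genotypes.

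Hspa8 encodes HSC70, the HSP70 of unstressed cells, which folds new proteins and also serves vesicle uncoating and chaperone-mediated autophagy. In control livers its normalized counts were 44217 and 43858 in the fasted mice, 51356 and 54938 in the sucrose-fed mice, and 60923 and 50254 in the fructose-fed mice. In MED13-LKO livers they were 42104 and 39158 fasted, 43444 and 47099 after sucrose, and 55472 and 59515 after fructose. All 8 fed libraries lay above both fasted libraries of their own genotype, a pattern shared by 7.47% of all tested genes. On average Hspa8 was 1.24-fold higher in the fed livers (log2 0.31, SE 0.0661, limma adjusted p = 0.00842). The group means ran from 40631 ± 2083 (SD, n = 2) in fasted MED13-LKO through 44037 ± 254 in fasted control, 45272 ± 2585 with sucrose in MED13-LKO, 53147 ± 2533 with sucrose in control and 55588 ± 7544 with fructose in control to 57493 ± 2859 with fructose in MED13-LKO. In this order fasted control and sucrose-fed MED13-LKO overlapped, as did both control fed groups, and fructose-fed MED13-LKO lay within the range of fructose-fed control.

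Hsp90aa1 encodes the inducible HSP90 of the cytosol. Its normalized counts in control livers were 9662 and 9222 after fasting, 11351 and 14081 after sucrose, and 15166 and 10544 after fructose. In MED13-LKO livers they were 6866 and 7273 after fasting, 9209 and 10107 after sucrose, and 12002 and 16427 after fructose. As for Hspa8, every fed library was above both fasted libraries of its genotype, and the 2 fructose-fed mice of each genotype were far apart. The averaged difference was 1.49-fold (log2 0.57, SE 0.113, limma adjusted p = 0.00626), the largest of the 9 genes. Hspa8 and Hsp90aa1 kept their calls whichever library was left out, with adjusted p up to 0.0451 and 0.0322.

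Hsp90ab1 encodes the constitutive HSP90 of the cytosol. Control livers held 18899 and 17922 normalized counts after fasting, 19414 and 20378 after sucrose, and 22516 and 20138 after fructose. MED13-LKO livers held 14589 and 14994 after fasting, 14806 and 14148 after sucrose, and 18824 and 19484 after fructose. The fed mice were above the fasted mice of their genotype in 6 of 8 libraries, and the sucrose-fed MED13-LKO mice were not. The averaged difference of 1.12-fold (log2 0.17, SE 0.0489, limma adjusted p = 0.0366) was close to the threshold. It lost its call without a filter on low values (adjusted p = 0.0544) and when any of 8 libraries was left out, namely control fasted replicate 1 or 2, control sucrose replicate 2, MED13-LKO fasted replicate 1 or 2, MED13-LKO sucrose replicate 1 or 2 or MED13-LKO fructose replicate 2, with log2 differences of 0.15 to 0.19 and adjusted p up to 0.15.

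**Figure D2:**
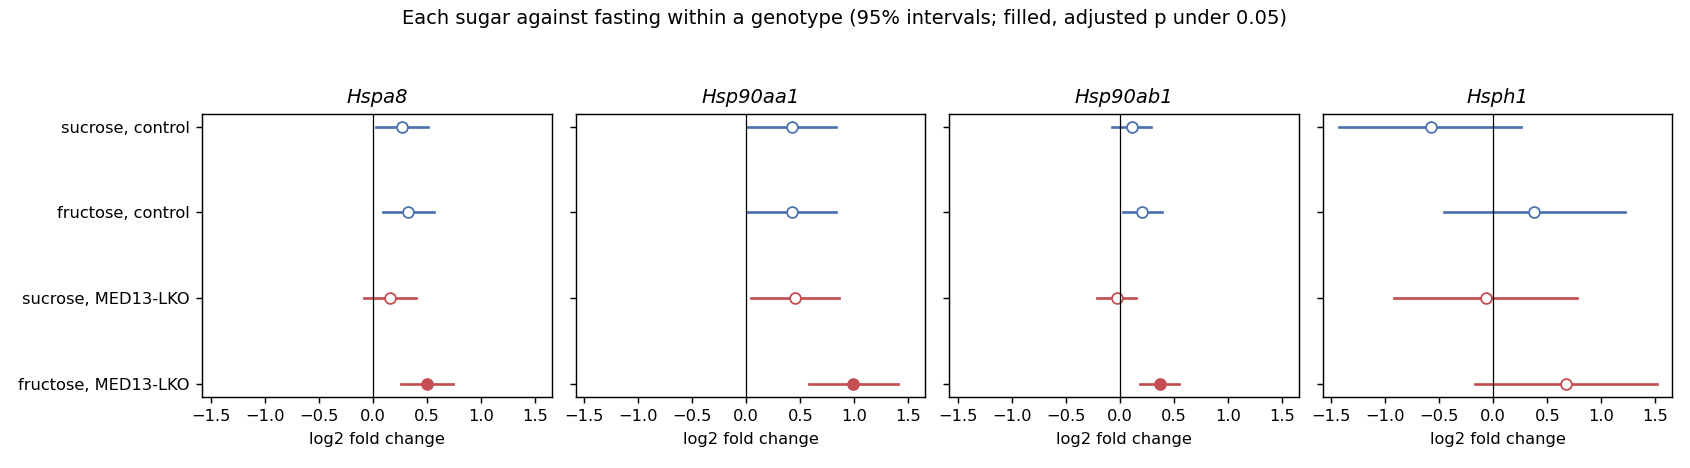
Log2 fold change of normalized count + 1 (x axis) of each sugar against the fasted state within a genotype (y axis), with 95% intervals, for Hspa8, Hsp90aa1, Hsp90ab1 and Hsph1 (blue control, red MED13-LKO; filled circles, adjusted p under 0.05). The 3 filled circles are fructose in MED13-LKO livers, at 0.50 for Hspa8, 0.99 for Hsp90aa1 and 0.37 for Hsp90ab1, and the intervals of Hsph1 all include 0.

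Within single groups, calls were made only for fructose in the MED13-LKO livers. There 3 of the 9 genes were called higher, where 2.94% of all tested genes were higher and 6.53% were called in either direction. Hsp90aa1 was 1.99-fold higher (log2 0.99, SE 0.185, limma adjusted p = 0.0154), Hspa8 1.42-fold (log2 0.50, SE 0.108, adjusted p = 0.0258) and Hsp90ab1 1.29-fold (log2 0.37, SE 0.0799, adjusted p = 0.0253). These calls depended on single mice. Without MED13-LKO fasted replicate 1 or 2 or MED13-LKO fructose replicate 1 or 2, Hspa8 had log2 differences of 0.55, 0.45, 0.55 and 0.45 and was not called, nor was Hsp90ab1 at 0.35, 0.39, 0.40 and 0.35. Hsp90aa1 was not called without MED13-LKO fasted replicate 1 or 2 or fructose replicate 2, at log2 differences of 0.95, 1.03 and 0.76.

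In control livers limma called 0 of the 9 genes with sucrose, where 8.57% of all tested genes were called, and 0 with fructose, where 5.6% were called. With sucrose in MED13-LKO livers it called 0 of 9, where 5.71% were called. At an unadjusted p under 0.05 the 3 comparisons held 2, 3 and 1 of the 9 genes, beside 24.6%, 22.9% and 20.8% of all tested genes, so these counts are near the background. In control livers the log2 differences of Hspa8 were 0.27 with sucrose (SE 0.108, adjusted p = 0.157) and 0.33 with fructose (SE 0.108, adjusted p = 0.106), and those of Hsp90aa1 were 0.42 with either sugar (SE 0.185, adjusted p = 0.193 and 0.208). Without control fructose replicate 2, the lower of the fructose-fed control mice for these genes, both were called with fructose, at log2 differences of 0.47 for Hspa8 (adjusted p = 0.0308) and 0.68 for Hsp90aa1 (adjusted p = 0.0498). An effect called for one sugar and genotype is not shown to differ from the others by this.

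The difference itself was tested in 4 contrasts. The response to sucrose was compared between genotypes, with 0 of 9 genes called (0.146% of all tested genes, and 0 of 9 at an unadjusted p under 0.05 beside 8.53% of all), as was the response to fructose, with 0 of 9 called (0.0243%, and 1 of 9 unadjusted beside 9.46% of all). For the fructose response the log2 difference between genotypes was 0.57 for Hsp90aa1 (95% interval -0.01 to 1.15, limma adjusted p = 0.533), 0.40 for Hspe1 (0.04 to 0.76, adjusted p = 0.489) and 0.17 for Hspa8 (-0.17 to 0.51, adjusted p = 0.765). This difference was positive for 8 of the 9 genes. It was negative, and largest in size, for Hspa1a, at 0.501-fold (log2 interval -2.58 to 0.58, limma adjusted p = 0.69). Fructose was compared with sucrose, with 0 of 9 genes called in control livers and 0 of 9 in MED13-LKO livers, where 0.0404% of all tested genes were called in each case. At an unadjusted p under 0.05 these held 1 and 4 of the 9 genes, beside 8.58% and 7.69% of all tested genes. In the MED13-LKO livers 8 of the 9 genes were higher with fructose than with sucrose, and Hspa1a was lower. The log2 differences were 0.35 for Hspa8, 0.54 for Hsp90aa1 and 0.40 for Hsp90ab1 (limma adjusted p = 0.461, 0.511 and 0.205). For Hspa1a the difference was the largest, at -1.24 (95% interval -2.36 to -0.13, adjusted p = 0.594). In control livers the same contrast gave 0.06 for Hspa8 (95% interval -0.18 to 0.30) and 0.00 for Hsp90aa1 (-0.41 to 0.41).

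The genes Hspa1a, Hspa1b, Hsph1 and Dnajb1 were not called in any contrast on the authors' scaling. Hspa1b, an HSP70 gene that is strongly induced by heat, had normalized counts of 1454 and 1027 in fasted, 1240 and 794 in sucrose-fed and 1301 and 1091 in fructose-fed control livers. In MED13-LKO livers they were 1127 and 1167, 892 and 1313, and 1327 and 1275. Within the control genotype the 3 diets overlapped, and the averaged feeding difference was -0.06 on the log2 scale (95% interval -0.38 to 0.27, adjusted p = 0.807). Hspa1a, its near-identical neighbour, was listed at 37.4 and 26.5, 61 and 24.8, and 25.3 and 33.8 normalized counts in control livers and at 58.9 and 44.6, 47.4 and 67.6, and 14.8 and 36.5 in MED13-LKO livers in the same order of diets. Its averaged feeding difference was -0.19 (interval -0.88 to 0.49, adjusted p = 0.693). Over the 12 libraries the log2 values of Hspa1a and Hspa1b had a Pearson r of 0.07, and with the 2 rows summed no comparison was called.

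Hsph1, the HSP110 gene whose protein exchanges the nucleotide of HSP70, had 648 and 376 normalized counts in fasted, 213 and 508 in sucrose-fed and 654 and 631 in fructose-fed control livers. In MED13-LKO livers it had 370 and 596, 406 and 490, and 725 and 771. The fructose-fed MED13-LKO mice were above the other MED13-LKO mice, while among control mice fasted replicate 1 lay between both fructose-fed mice. The averaged feeding difference was 0.10 (interval -0.42 to 0.62, adjusted p = 0.797), and fructose against sucrose gave 0.96 in control livers (interval 0.12 to 1.81, adjusted p = 0.514) and 0.74 in MED13-LKO livers (interval -0.10 to 1.59, adjusted p = 0.694).

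Dnajb1 encodes HSP40, the J-domain partner of the inducible HSP70. It varied least of the 10 genes, between 667 and 785 normalized counts over all 12 libraries, a ratio of 1.18. The averaged feeding difference was 0.05 on the log2 scale (interval -0.07 to 0.18, limma adjusted p = 0.526).

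Hsf1, the gene of the heat shock factor, was listed at 12.5 and 6.03 normalized counts in fasted, 0 and 0 in sucrose-fed and 30.8 and 14.6 in fructose-fed control livers. In MED13-LKO livers it was listed at 13.4 and 0, 11.5 and 0, and 10.8 and 0. The lower fructose-fed control library, at 14.6, was close to the highest of the other groups, at 13.4, and each MED13-LKO group held 1 library at 0. With a mean of 8.31, all these values are near the floor. In the fit without a filter on low values, no contrast called Hsf1 (adjusted p from 0.247 to 1). Of 49 genes of RNA polymerase II, its basal factors and the proteasome, a set chosen after the values were seen, 0 were listed at 0 in any library. All 49 had means of at least 10, against 8.31 for Hsf1, so this set cannot show whether its zeros are unusual. The libraries held 15035 to 15647 of the 16346 genes above 0.

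The second question was how the genes differed between genotypes. In the libraries labelled MED13-LKO, Hsp90ab1 and the HSP60 gene Hspd1 were lower than in control livers on the authors' scaling, and no gene was called higher. With libraries rescaled to equal totals they differed by log2 0.01 and 0.06, while the median of all tested genes rose to 0.32. Relative to that shift of all genes they were at -0.31 and -0.26. Averaged over the 3 diets, 2 of the 9 genes were called lower, where 13.2% of all tested genes were called lower and 25.3% in either direction. The median log2 difference was -0.10 over the 9 genes and 0.01 over all tested genes. Within each of the 3 diets, both MED13-LKO mice lay below both control mice for Hsp90ab1 and for Hspd1, a pattern seen in 9.82% of all tested genes.

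Hsp90ab1, with the values given above, was 0.807-fold of control on average (log2 -0.31, SE 0.0461, limma adjusted p = 0.00111). By diet, 1 of 9 genes was called with fasting, where 8.98% of all tested genes were called and 4.86% lower, and 1 of 9 with sucrose, where 6.03% were called and 3.33% lower. Both calls were of Hsp90ab1, lower at log2 -0.32 in the fasted mice (SE 0.0799, adjusted p = 0.0371) and -0.46 with sucrose (SE 0.0799, adjusted p = 0.00992). With fructose its difference was -0.15 (95% interval -0.33 to 0.03, adjusted p = 0.288), and limma called 0 of the 9 genes, where 7.69% of all tested genes were called, and 0 of 9 at an unadjusted p under 0.05, beside 23.2% of all. The call in the fasted mice was lost without either control fasted mouse (log2 -0.28 and -0.35) or any MED13-LKO mouse (log2 -0.30, -0.34, -0.32, -0.32, -0.32 and -0.32), with adjusted p up to 0.191. The call with sucrose was lost without control sucrose replicate 2 (-0.42) or MED13-LKO sucrose replicate 1 or 2 (-0.49 and -0.43), with adjusted p up to 0.0773.

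Hspd1 encodes HSP60, the chaperonin of the mitochondrial matrix. Its normalized counts were 11790 and 11768 in fasted, 10031 and 11221 in sucrose-fed and 12200 and 9844 in fructose-fed control livers. In MED13-LKO livers they were 9497 and 8889, 8917 and 9356, and 9496 and 9672. On the authors' scaling the highest MED13-LKO value, 9672, was thus below the lowest control value, 9844. How many of all tested genes show this was not counted. It can be at most the 9.82% with MED13-LKO libraries below control libraries within each diet. At equal totals the differences were -0.02 in the fasted mice, 0.07 with sucrose and 0.13 with fructose. The medians of all tested genes were then 0.35, 0.28 and 0.32, and relative to these Hspd1 was at -0.37, -0.21 and -0.19. The averaged difference was 0.837-fold (log2 -0.26, SE 0.0594, limma adjusted p = 0.0112), and it was called whichever library was left out (log2 -0.31 to -0.20). No single diet was called, with -0.36 in the fasted mice (adjusted p = 0.0589), -0.22 with sucrose (adjusted p = 0.264) and -0.19 with fructose (adjusted p = 0.296). The fasted difference was called without control fructose replicate 1 or 2 (log2 -0.36 in both, adjusted p = 0.0177 and 0.0178) or with only the fasted groups fitted (adjusted p = 0.0314).

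Hspe1 encodes HSP10, the lid of the HSP60 chamber, and shares its start region with Hspd1. Its normalized counts were 2863 and 2695 in fasted, 2517 and 2686 in sucrose-fed and 2909 and 2272 in fructose-fed control livers, and 2199 and 2163, 2338 and 2393, and 2498 and 2845 in MED13-LKO livers. The genotypes were apart in the fasted and sucrose-fed mice and overlapped with fructose. The averaged genotype difference was -0.14 (SE 0.0653, adjusted p = 0.138), and it was called only without control fructose replicate 2 (log2 -0.20, adjusted p = 0.0161). The fasted difference of -0.35 (adjusted p = 0.0856) was called without control fructose replicate 1 or 2 (log2 -0.35 in both, adjusted p = 0.0255 and 0.0252). Over the 12 libraries the log2 values of Hspd1 and Hspe1 had a Pearson r of 0.79.

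The genotype differences of the remaining genes were not called. They were -0.22 for Hsp90aa1 (SE 0.107, limma adjusted p = 0.166), -0.10 for Hspa8 (SE 0.0623, adjusted p = 0.286) and -0.04 for Dnajb1 (SE 0.0529, adjusted p = 0.67) on average. The difference of Hsp90aa1 was called without control fructose replicate 2 (log2 -0.31, adjusted p = 0.0349). Those of Hspa1a, Hsph1 and Hspa1b were 0.30, 0.19 and 0.05, with intervals from -0.35 to 0.94, -0.29 to 0.68 and -0.25 to 0.36.

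**Figure D3:**
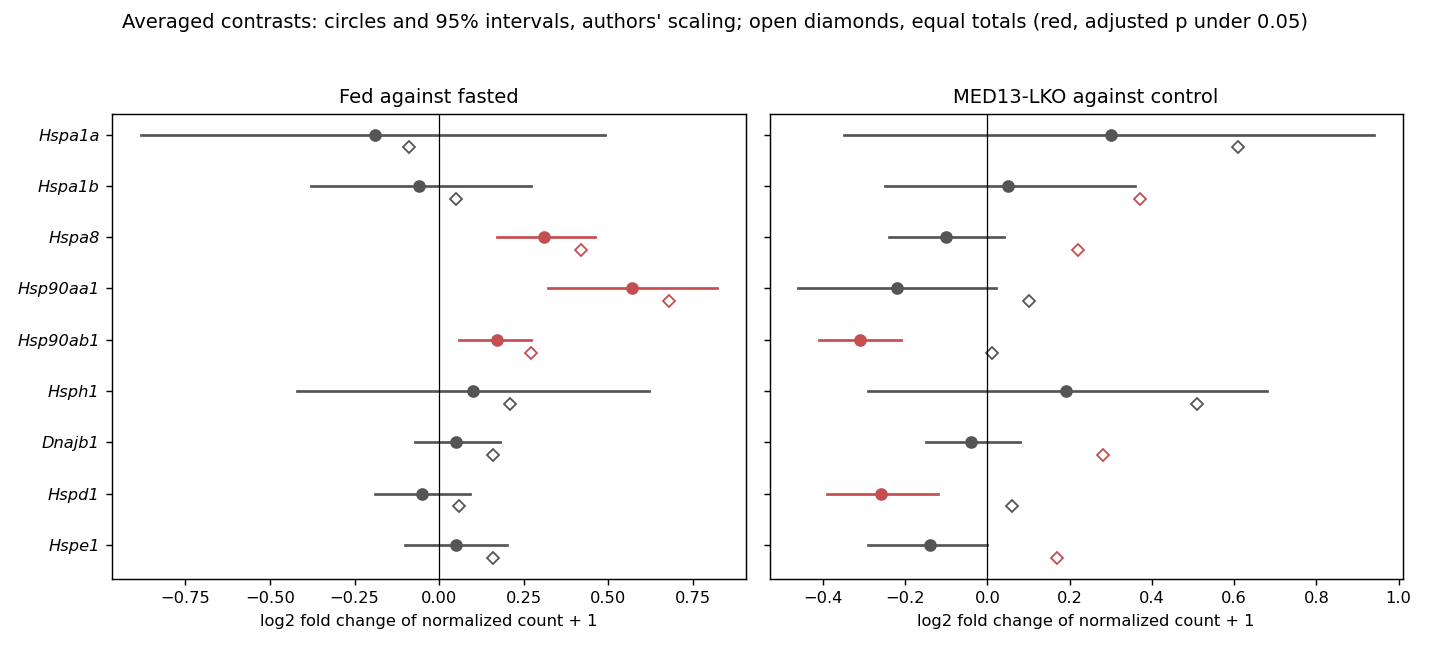
Averaged log2 fold changes of normalized count + 1 (x axes) of the 9 tested genes (y axis) for feeding (left) and genotype (right). Circles with 95% intervals are on the authors' scaling and open diamonds are after rescaling to equal totals (red, adjusted p under 0.05): Hspa8, Hsp90aa1 and Hsp90ab1 are red on both scalings for feeding, while the genotype differences of Hsp90ab1 and Hspd1 move from -0.31 to 0.01 and from -0.26 to 0.06. At equal totals the median genotype difference of all tested genes was 0.32.

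The genotype differences depend on the scale. Since the libraries labelled MED13-LKO had lower sums of normalized counts, rescaling all libraries to equal totals raised the median difference of all tested genes to 0.32 averaged over diets. On that scale Hsp90ab1 differed by 0.01 (limma adjusted p = 0.895) and Hspd1 by 0.06 (adjusted p = 0.308), which relative to the shift of all genes was -0.31 and -0.26. Hspa8 (0.22, adjusted p = 0.00555), Dnajb1 (0.28, adjusted p = 0.00306), Hspe1 (0.17, adjusted p = 0.0302) and Hspa1b (0.37, adjusted p = 0.0421) were then called higher, where 57.5% of all tested genes were, and relative to the shift they were -0.10, -0.04, -0.15 and 0.05. For feeding the shift was 0.10, and the same 3 genes were called, with 0.42 for Hspa8 (adjusted p = 0.000696), 0.68 for Hsp90aa1 (adjusted p = 0.00149) and 0.27 for Hsp90ab1 (adjusted p = 0.00331).

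Markers of liver cell types were counted in the same fit. Between genotypes 13.2% of all tested genes were called lower and 25.3% in either direction. With feeding 10.7% were called higher and 21.8% in either direction. The summed level of 7 hepatocyte markers, of which 6 were called lower, was 2366645 to 3041891 normalized counts in control and 1759167 to 2114867 in MED13-LKO libraries. Of 7 Kupffer cell markers 2 were called higher (sums of 3591 to 4965 against 4684 to 6157), and of 7 sinusoidal endothelial markers 5 (sums of 4502 to 5312 against 5435 to 7167). Of 5 red blood cell markers 4 were lower (sums of 8905 to 14895 against 5734 to 11173), as were 3 of 7 stellate cell markers and 1 of 4 cholangiocyte markers. None of 6 lymphocyte markers and 1 of 4 neutrophil markers in the table reached the filter. With feeding 2 of 7 hepatocyte, 2 of 7 endothelial and 4 of 5 red blood cell markers were lower, 0 of 7 Kupffer cell and 0 of 4 cholangiocyte markers were called, and stellate cell markers were split at 1 higher and 1 lower. At equal totals the genotype counts were 1 higher and 3 lower for hepatocyte, 7 of 7 higher for Kupffer cell and 7 of 7 higher for endothelial markers. On that scale 57.5% of all tested genes were called higher and 3.28% lower. Hepatocyte markers had the highest summed level of these lists in all groups, and the part of cell makeup in the differences above was not tested.

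**Figure D4:**
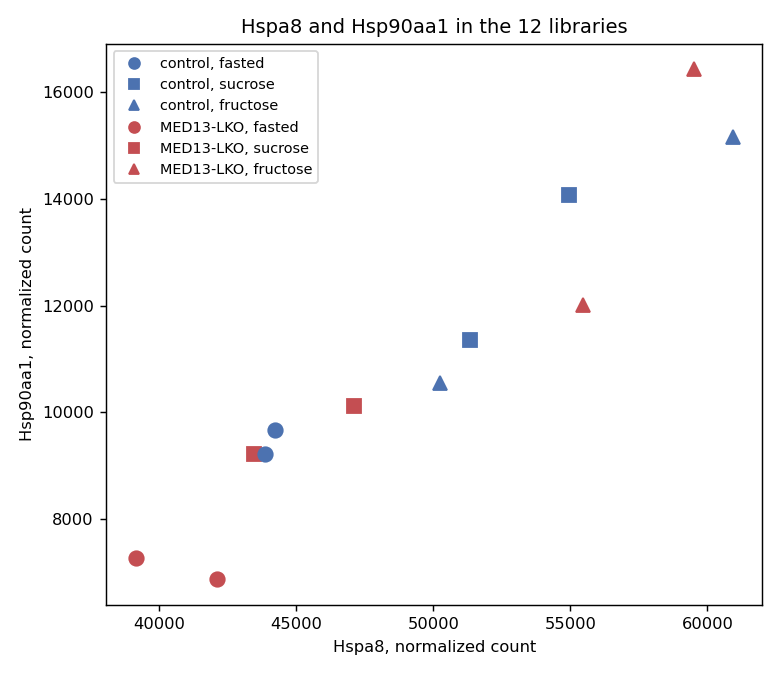
Normalized counts of Hspa8 (x axis) and Hsp90aa1 (y axis) in the 12 libraries, with 1 symbol per mouse (blue control, red MED13-LKO; circles fasted, squares sucrose, triangles fructose). Their log2 values had a Pearson r of 0.95, with the fasted mice of each genotype below and to the left of its fed mice.

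The members differed in how they moved over the 12 libraries, which share genotype and diet, so the following values describe these libraries only. Hspa8 and Hsp90aa1 had a Pearson r of 0.95, and each had 0.77 with Hsp90ab1. The correlation of Hspa8 with Hspa1b was 0.14 and with Hspa1a -0.50. Among all tested genes, those most like Hspa8 were Heatr1 (r = 0.97), Hsp90aa1 itself and Jpt2 (0.95). Those most like Hsp90aa1 were Sntb1 (0.97), Cacybp (0.97), which was counted among the co-chaperones, and the chaperonin subunit gene Cct3 (0.96). Hsp90ab1 was most like the small heat shock gene Hspb1 (0.95), Rrbp1 (0.94) and Gmps (0.94). Hspd1 was most like Rps16, Ndufb2 and Atp6v1g1 (0.95 each), and Hspe1 like the pseudogene Gm10177 (0.96), Bud31 (0.92) and Mrpl46 (0.91). Among the genes nearest to Hspa1a were Smpd3 (0.90) and Twist1 (0.84), and to Hspa1b Ly6a (0.87), Sparc (0.86) and Pygb (0.82). Hsph1 was nearest to Tonsl (0.90), Tfap4 (0.82) and Eef1akmt1 (0.81), while Timp2 (0.80) and Josd2 (0.79) were among the genes most like Dnajb1.

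**Figure D5:**
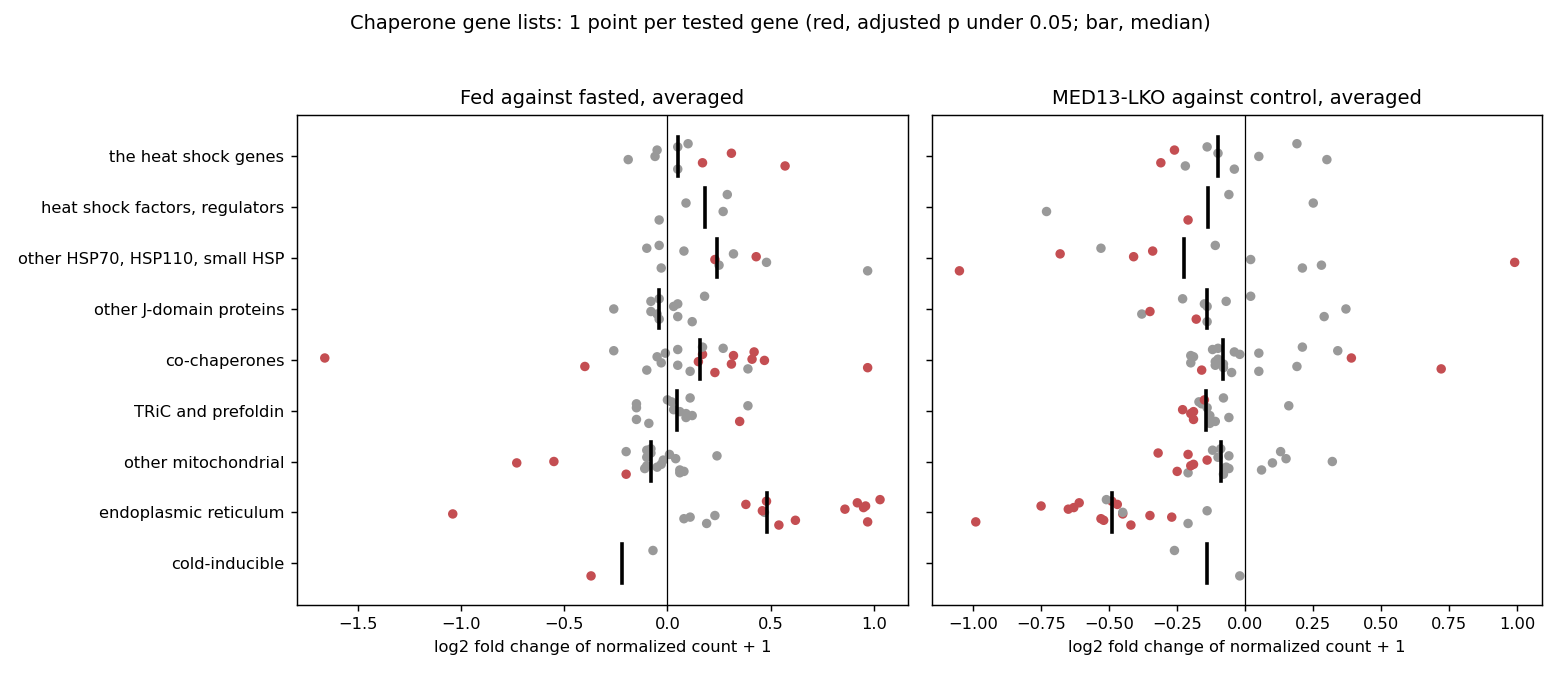
Averaged log2 fold changes of normalized count + 1 (x axes) for feeding (left) and genotype (right) in lists of chaperone and related genes (y axis), with 1 point per tested gene (red, adjusted p under 0.05) and a bar at the median. The endoplasmic reticulum chaperones had the medians farthest from 0, at 0.48 for feeding and -0.49 for genotype, and the heat shock genes had 0.05 and -0.10.

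The partners of the heat shock genes were counted on lists of related genes. Of 22 co-chaperones of HSP70 and HSP90, 9 were called higher and 2 lower after feeding, with a median log2 difference of 0.16 against -0.01 over all tested genes. The shares over all tested genes, for these and the following lists, were 10.7% higher and 21.8% in either direction. Bag3, a co-chaperone of HSP70 in selective autophagy, had 461 and 416 normalized counts in fasted, 1144 and 739 in sucrose-fed and 914 and 802 in fructose-fed control livers, and 495 and 373, 874 and 740, and 756 and 924 in MED13-LKO livers. All fed mice were above all fasted mice, as in 4.01% of all tested genes, and the averaged difference was 1.96-fold (log2 0.97, limma adjusted p = 0.000752). Chordc1, an HSP90 partner, was higher by log2 0.47 (adjusted p = 0.00538). Fkbp5, a glucocorticoid-responsive HSP90 co-chaperone, moved the other way, from 3275 and 2922 in fasted to 944 to 1353 in fed control livers and from 5456 and 4422 to 985 to 1673 in MED13-LKO livers (log2 -1.66, adjusted p = 4.38e-05).

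Of 10 other tested HSP70, HSP110 and small heat shock genes of the cytosol, 2 were higher after feeding, the HSP110 relatives Hspa4l (log2 0.43, limma adjusted p = 0.0224) and Hspa4 (log2 0.23, adjusted p = 0.00353). Of 14 genes of the cytosolic chaperonin TRiC and of prefoldin, Cct3 alone was called (log2 0.35, adjusted p = 0.00406). Of 11 other J-domain genes and of 4 genes of other heat shock factors and their regulators, 0 were called. Of 19 other mitochondrial chaperone and protease genes, 0 were higher and 3 lower, namely Grpel2 (log2 -0.73, adjusted p = 0.00189), Hscb (-0.55, adjusted p = 0.0411) and Afg3l2 (-0.20, adjusted p = 0.00929). The list of endoplasmic reticulum chaperones, which also holds related genes of that compartment, had 11 of 17 genes called higher and 1 lower. Sdf2l1 (log2 1.03, adjusted p = 0.0225) and Creld2 (0.97, adjusted p = 0.0286) were among the former. The latter was Herpud1 (-1.04, adjusted p = 0.000111), a related gene rather than a chaperone gene. The calls of Creld2, Sdf2l1 and Hspa4l depended on single libraries, with log2 differences over the alternatives of 0.77 to 1.17, 0.84 to 1.23 and 0.38 to 0.54. In MED13-LKO livers Creld2 had 1097 and 640 normalized counts fasted, 928 and 817 after sucrose, and 1511 and 4670 after fructose. Of the 2 cold-inducible RNA-binding genes, whose transcripts fall as temperature rises, Cirbp was called lower (log2 -0.37, adjusted p = 0.0398) but kept this in 5 of 18 alternatives, and Rbm3 differed by -0.07 (adjusted p = 0.636). Hscb kept its call in 3 of 18. At equal totals, where 19.1% of all tested genes were called higher and 5.76% lower, the higher and lower counts were 3 and 0 for the HSP70 relatives, 5 and 0 for TRiC and prefoldin, 2 and 0 for the J-domain genes, 10 and 2 for the co-chaperones, 2 and 1 for the mitochondrial genes, 14 and 1 for the endoplasmic reticulum chaperones and 0 and 0 for the cold-inducible genes.

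Between genotypes the calls on these lists were mostly lower in MED13-LKO livers on the authors' scaling, and mostly higher at equal totals. The shares over all tested genes were 13.2% lower and 25.3% in either direction on the authors' scaling. The endoplasmic reticulum chaperones held 0 genes called higher and 13 of 17 lower (median log2 -0.49), with Creld2 at -0.99 (limma adjusted p = 0.0178), Manf at -0.75 (adjusted p = 0.0121) and Hspa5, the HSP70 of the endoplasmic reticulum, at -0.65 (adjusted p = 0.0361). MED13-LKO fructose replicate 2 stood apart in these genes, with 63915 normalized counts of Hspa5 against 27113 in replicate 1 and 4670 of Creld2 against 1511. Lower calls were 5 of 14 for TRiC and prefoldin (Pfdn1, Cct7 and Cct4 at -0.23, -0.20 and -0.19), 6 of 19 for the other mitochondrial genes (Phb2, Clpp and Phb at -0.32, -0.25 and -0.21) and 2 of 11 for the J-domain genes (Dnajb4 and Dnaja2 at -0.35 and -0.18), with 0 higher in each. Among other HSP70, HSP110 and small heat shock genes 4 of 10 were lower and 1 higher, with Cryab at -1.05 (adjusted p = 0.0358), Hspb1 at -0.68 (adjusted p = 0.0067) and Hspa1l at 0.99 (adjusted p = 0.0101). Of the co-chaperones 2 of 22 were higher, Bag2 (0.72) and Fkbp5 (0.39), and 1 lower, Bag1 (-0.16), while Hsbp1, whose product binds heat shock factor, was lower by -0.21 (adjusted p = 0.00909) among 4 genes, and 0 of the 2 cold-inducible genes were called. Some of these calls were kept in 5 to 10 of the 18 alternatives only, namely Bag1 in 5, Cryab, Fkbp5 and Hspa5 in 9, and Pfdn1 and Cct4 in 10, and each of them was lost on leaving out any of several single libraries. At equal totals Bag1 (0.15, adjusted p = 0.0424), Cct4 (0.13, adjusted p = 0.0342) and Dnaja2 (0.13, adjusted p = 0.0165) were called higher, and Cryab (-0.75, adjusted p = 0.0677) and Hspa5 (-0.33, adjusted p = 0.158) were not called. The counts of most lists turned on that scale, where 57.5% of all tested genes were called higher and 3.28% lower, to 0 lower and 9 higher for TRiC and prefoldin and 0 lower and 13 higher for the mitochondrial genes, to 0 lower and 6 higher for the J-domain genes and 0 lower and 17 higher for the co-chaperones, and the endoplasmic reticulum chaperones were left with 1 lower and 0 higher. Hspb1 remained lower there (log2 -0.36, adjusted p = 0.0462).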

How the data were processed

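Liver RNA was sequenced in 12 libraries, 2 in each of 6 genotype by diet groups, and the groups were taken from the labels. Per the submitters' processing notes, the authors used Trim Galore 0.6.5 for trimming, kallisto 0.46.0 for estimated transcript counts and DESeq2 1.24.0 for normalization, with mm10 as the build. The deposited signal values are these normalized counts, listed by Ensembl identifier. Since they are not whole reads, count tests were not run, and read depth per gene is unknown. Symbols came from a gene name table, and 134 of the 16346 identifiers had none.

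The tests used log2(normalized count + 1) of the 12366 genes whose mean over all libraries reached 10. A linear model with 1 mean per group was fitted in limma 3.58.1 (R 4.3.3) with empirical Bayes moderation that followed the mean, and 13 contrasts were tested. Benjamini-Hochberg adjustment ran over all tested genes, and genes under 0.05 were called. The tests are two-sided and intervals are 95% intervals of the fit. The libraries are labelled as replicates, and nothing in the sources used here ties each to its own mouse, so p-values measure the spread between these samples, which may be technical. The fit was tested on simulated data.

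The genes and all lists were chosen with earlier results of these data known. Genes of the lists were named when called in an averaged contrast, at most 3 per list and contrast with the largest change, and for each heat shock gene the 3 other genes with the highest Pearson r were named, except for some that are not reported here. Sequence sharing was the percent of 31-base subsequences found in another gene of GENCODE M21. Alternatives were pseudocounts of 0.1 and 10, no filter, equal 75th percentiles, equal totals, a block for the replicate number, only the compared groups in the fit, summed copies, and leaving out each library in turn, where the lone mouse left in a group is assumed to vary like the other groups. Figures used Python 3.11.15 and matplotlib 3.10.9.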

Additional observations from a re-analysis of the deposited data

How the results depend on the processing

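Pseudocounts of 0.1 and 10, equal 75th percentiles and summed copies changed no call of the heat shock genes. The summed copies held few counts beside the larger row, as given above, so that setting could hardly change a call. With equal totals 1 gene was called for sucrose and 2 for fructose in control livers (all tested genes: 8.35% and 5.63% higher), Hspe1 was called for fructose in MED13-LKO livers (0.40, adjusted p = 0.049), and between genotypes 0 genes were called fasted, 0 with sucrose, 3 with fructose and 4 on average (all tested genes: 31.7%, 16.8%, 26.2% and 57.5% higher). The averaged genotype differences then turned from negative to positive for 6 of 9 genes, Hspa8 (0.22), Hsp90aa1 (0.10), Hsp90ab1 (0.01), Dnajb1 (0.28), Hspd1 (0.06) and Hspe1 (0.17). In fasted mice 5 turned, Hsp90ab1 (0.03), Hspa8 (0.23), Dnajb1 (0.19), Hspa1b (0.25) and Hsph1 (0.27), as did 4 with sucrose and 2 with fructose, which follows from the lower library sums of MED13-LKO. Without a filter, 0 genes were called between genotypes in fasted mice, where more genes were tested. With only the compared groups fitted, 4 were called there (also Hsp90aa1, Hspd1 and Hspe1) and 1 for sucrose in MED13-LKO livers (Hsp90aa1), Hsp90ab1 lost its fructose call in MED13-LKO livers (adjusted p = 0.06), and the cause was not tested.

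Leaving out 1 library gave 0 to 2 calls for fructose in control and 0 to 3 in MED13-LKO livers, 2 to 3 for averaged feeding, and between genotypes 0 to 3 fasted, 0 to 1 with sucrose and 2 to 4 averaged. Mice with the same replicate number did not deviate together (correlations of -0.142 to 0.0782 over 15 pairs of groups, 0 over 0.1), which does not exclude a pairing. The submitters' own library names match these replicate numbers for the fasted mice but not for the fed mice. A pairing of fasted with fed mice by those names was not tested. With the replicate block 0 genes were called between genotypes in fasted mice, and Hsp90ab1 lost its averaged feeding call (adjusted p = 0.0537), leaving 2. The spread of 2 mice per group limits what could be detected, above all for Hspa1a, Hsph1 and Hsf1.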

Other observations

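Lists of clock and immediate early genes were counted in the same fit, since feeding and time of day cannot be told apart in these mice. Of 16 tested clock genes, 3 were higher and 6 lower in the fed livers, with Bhlhe40 (log2 1.18, limma adjusted p = 4.77e-05), Ciart (-1.21, adjusted p = 0.00133) and Per1 (-1.18, adjusted p = 0.00767) changed most. Between genotypes 1 was higher, Bhlhe41 (1.83, adjusted p = 0.000899), and 6 lower, among them Nr1d1 (-0.80, adjusted p = 0.00451) and Ciart (-0.71, adjusted p = 0.0121). At equal totals the genotype counts became 7 higher and 1 lower. Of 13 immediate early genes, 1 was higher after feeding, Atf3 (1.37, adjusted p = 0.000875), and 6 were lower, among them Egr1 (-1.64, adjusted p = 0.0208) and Zfp36 (-1.09, adjusted p = 0.00571). Between genotypes 2 of 13 were higher, Jund (0.41, adjusted p = 0.00322) and Jun (0.32, adjusted p = 0.0428), and Ier2 was lower (-0.32, adjusted p = 0.0267), which at equal totals became 7 higher and 0 lower. The calls of Jun and Ier2 were kept in 5 and 10 of 18 alternatives. Over all tested genes 10.7% were higher after feeding and 21.8% called in either direction, and between genotypes 25.3% were called. At equal totals 57.5% of all tested genes were higher and 3.28% lower between genotypes. The part of time of day or of tissue handling in the heat shock genes was not tested.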
